A study of Mus musculus with 8 samples.

Results

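Pdgfra, Cspg4, Gpr17, Bmp4, Enpp6, Bcas1, Neu4, Tcf7l2, Olig2 and Myrf are genes through which a glial progenitor becomes a myelin-forming oligodendrocyte, and their RNA and chromatin were followed here in nuclei of the mouse hippocampus at postnatal day 21 (P21). They were chosen by name, and all 10 were found among the 32285 genes of the deposited RNA matrices. The study asked whether excess maternal folic acid (FA) changes cells of the offspring hippocampus. Wild-type C57BL/6J dams received a diet with 2 mg/kg FA (the MF group) or 20 mg/kg FA (the HF group) before mating, in pregnancy and in lactation. The dams were 8 weeks old, though the methods of the paper give a range that starts at 8 weeks. The hippocampus of their male pups was taken at P21. Each diet had 2 single-nucleus multiome libraries, in which RNA (GEX) and chromatin accessibility (ATAC) are read from the same nucleus. How many pups a library holds was not given in the sources used here, so the spread between libraries may be partly technical.

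Oligodendrocyte progenitor cells (OPC) divide in response to platelet-derived growth factor, stop dividing, pass through a short premyelinating stage and then build myelin. In that passage receptors and surface proteoglycans of the progenitor are lost, a set of signalling and enzyme genes is switched on for a short time, and transcription factors such as Olig2, Tcf7l2 and Myrf hand over from one programme to the next. In the young rodent hippocampus all of these stages are present at the same time.

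Of 14297 deposited nuclei, 11518 passed the filters on genes, mitochondrial RNA and ATAC counts, from 2249 to 3473 per library, with 20151562 to 29243072 unique molecular identifiers (UMIs) per library. At most 20 cell barcodes were shared by 2 libraries. Nuclei were clustered without the 10 genes and named by other markers, which gave 544 progenitor-like nuclei (145, 110, 153 and 136 in MF1, MF2, HF1 and HF2), 288 differentiating oligodendrocyte-like nuclei (69, 58, 109 and 52) and 509 mature oligodendrocyte-like nuclei (132, 74, 170 and 133). They are called progenitor, differentiating and mature nuclei below, with median depths of 3175, 4230 and 4399 UMIs. With 119 nuclei of an unnamed cluster, which had most markers of mature nuclei among its top 50 genes but more of another type among its top 10, they formed the 1460 nuclei of the lineage, and clusters with high doublet scores were left out. The names fitted a list of 14 myelin genes, which took 0.085, 1.23 and 3.49% of the UMIs of the 3 stages, although 12 of the 14 had also been used as naming markers. Library MF1 stood apart in haemoglobin RNA, with 3967 UMIs of Hbb-bs in progenitor nuclei against 93 to 102 in the others.

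The 5 regulatory sequences that carry the accessibility results are given first, because each shows 1 of the patterns described further on. They are the promoter of Cspg4, most open in progenitor nuclei, the promoter of Bmp4, open chiefly in differentiating nuclei, the promoter of Neu4, open in both and closed in mature nuclei, the promoter of Enpp6, open from the differentiating stage on, and a region upstream of Myrf with the same course. The 4 promoters are the bases before the annotated start of the gene in the RefSeq promoter table (GRCm38.p6), on the strand of the gene, and end at an annotated gene start without touching an annotated exon. The Myrf stretch is the central 300 bases of a region between Myrf and the neighbouring gene Dagla, read from the GRCm38 genome, the build that the files call mm10, on the strand of Myrf. Capitals mark ACAATG or ACAAAG on either strand, cores of the kind bound by SOX family factors.
Cspg4 promoter, chr9:56864854-56865032, plus strand: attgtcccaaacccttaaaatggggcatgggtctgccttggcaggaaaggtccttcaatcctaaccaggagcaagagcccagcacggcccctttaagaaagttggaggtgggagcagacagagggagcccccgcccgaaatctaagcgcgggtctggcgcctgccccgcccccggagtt
Bmp4 promoter, chr14:46390670-46390919, minus strand: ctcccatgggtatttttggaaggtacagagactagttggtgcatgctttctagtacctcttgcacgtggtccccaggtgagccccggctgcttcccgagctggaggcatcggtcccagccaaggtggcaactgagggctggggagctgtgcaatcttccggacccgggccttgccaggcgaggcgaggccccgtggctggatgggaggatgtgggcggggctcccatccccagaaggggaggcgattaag
Neu4 promoter, chr1:94020243-94020450, plus strand: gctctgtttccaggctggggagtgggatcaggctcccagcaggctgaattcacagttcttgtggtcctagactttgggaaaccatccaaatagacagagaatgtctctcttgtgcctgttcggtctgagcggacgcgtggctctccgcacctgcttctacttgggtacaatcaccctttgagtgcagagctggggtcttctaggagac
Enpp6 promoter, chr8:46986637-46986886, plus strand: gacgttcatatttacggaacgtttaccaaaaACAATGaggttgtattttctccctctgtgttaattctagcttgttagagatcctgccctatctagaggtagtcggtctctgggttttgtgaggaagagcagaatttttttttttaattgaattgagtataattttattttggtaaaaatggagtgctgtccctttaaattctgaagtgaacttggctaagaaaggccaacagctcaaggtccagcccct
Myrf upstream region, chr19:10243022-10243321, minus strand: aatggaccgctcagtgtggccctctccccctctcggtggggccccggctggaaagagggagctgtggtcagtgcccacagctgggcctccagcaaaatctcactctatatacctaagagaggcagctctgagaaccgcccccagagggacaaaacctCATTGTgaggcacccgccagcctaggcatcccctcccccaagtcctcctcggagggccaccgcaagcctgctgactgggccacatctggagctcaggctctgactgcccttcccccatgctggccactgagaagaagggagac

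The Enpp6 promoter and the Myrf upstream region each held 1 ACAATG, and the other 3 held neither core. Both strands were searched. ACAATG stood in 10.7% of all 32851 promoter windows of 250 bases and in 15% of 154747 region centres of 300 bases, and ACAAAG in 16.5% and 22.7%. Promoter windows were found for 7 of the 10 genes, 8 windows in all because Tcf7l2 has 2. ACAATG was in 3 of the 8 (Enpp6, Tcf7l2 and Olig2), ACAAAG was in 1 (Tcf7l2), and ATCAAAG, a core of the kind bound by TCF family factors, was in 0 of 8 and in 3.21% of all windows. These letter matches are descriptions of the windows, and no binding was measured.

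RNA levels are given in CPM, the UMIs of a gene times 1000000 over the summed UMIs of a stage and library, as mean ± SD over the 4 libraries. Stages are clusters of the same RNA, so differences between them are described and not tested. By mean level 3 of the 10 genes were highest in progenitor nuclei (Pdgfra, Cspg4 and Olig2), 7 were highest in differentiating nuclei, and 0 were highest in mature nuclei. The libraries of differentiating and progenitor nuclei did not overlap for 10 of 10 genes, against 30% of all genes of at least 10 CPM. Those of mature and differentiating nuclei did not overlap for 9 of 10 against 31.4%, and those of mature and progenitor nuclei for 10 of 10 against 41.7%. The list was chosen as genes of this transition, so these counts describe it and were not tested. Fewer transcripts per nucleus and a smaller part of the nuclei that hold them cannot be told apart in summed counts.

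Among the receptors and proteoglycans of the progenitor, Pdgfra encodes the receptor for the mitogen PDGF-AA. In progenitor nuclei it stood at 916, 845.5, 812 and 779 CPM in MF1, MF2, HF1 and HF2 (838 ± 58.6, SD, n = 4). In differentiating nuclei it stood at 16, 7.36, 15.6 and 22 CPM, and in mature nuclei 3 UMIs were counted in all libraries together. Every progenitor library lay far above every other library, and summed over libraries the level was 55.8-fold higher in progenitor than in differentiating nuclei. With the lineage clustered at resolution 1.0 in place of 0.5 the ratio of the library means was 94.8 in place of 55. Against mature nuclei the ratio was 654, with a 95% counting interval of 223 to 3175.

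Cspg4 encodes the NG2 chondroitin sulphate proteoglycan. Its 4 progenitor libraries held 514, 443.5, 450 and 488 CPM, its differentiating libraries 54.5, 29.4, 33.1 and 57.3 CPM, and its mature libraries 1.58 to 5.72 CPM. The 3 stages formed steps with no overlap, of 11.45-fold between progenitor and differentiating nuclei and 13.8-fold between differentiating and mature nuclei. At resolution 1.0 the first step was 17.6-fold in the library means, in place of 10.9-fold.

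Gpr17, an orphan G protein-coupled receptor of committed precursors, was already present in progenitor nuclei, at 231.5, 174, 194 and 207 CPM. It reached 590, 419, 459 and 370 CPM in differentiating nuclei and fell to 5.25 to 9.46 CPM in mature nuclei. The rise was 2.3-fold and the drop 60.4-fold, and no libraries of different stages overlapped. The size of the drop depended on the clustering and the scale: in library means it was 59.3-fold, 27.05-fold with the members returned to the clustering genes, 24.95-fold at resolution 1.0 and 98-fold in means of per-nucleus CPM. The gene lies inside Lims2 on the opposite strand, Lims2 was among the naming markers of differentiating nuclei, and whether the counting used strand was not given in the sources used here.

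Neu4 encodes a sialidase that trims sialic acids from glycoproteins and glycolipids. It was likewise present before the switch, with 129, 158, 162 and 131.5 CPM in progenitor nuclei and 257, 195, 292 and 194 CPM in differentiating nuclei. In mature nuclei 1 UMI was counted in 4 libraries. The rise was 1.7-fold and small beside the loss, whose ratio was 575 with a counting interval of 102.5 to 22790.

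Bmp4 encodes a secreted ligand of the bone morphogenetic protein (BMP) family. It stood at 19.8, 13, 29.2 and 15.2 CPM in progenitor nuclei and at 375, 331, 356 and 234 CPM in differentiating nuclei, 16.9-fold higher. In mature nuclei 2 UMIs were counted, a ratio of 390 to the differentiating stage (counting interval 107 to 3228). Bmp4 was thus high in 1 of the 3 stages. An antisense gene, Gm15222, and the protein-coding Gm15217 on the opposite strand overlap it.

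Enpp6 encodes a phosphodiesterase that splits glycerophosphocholine into phosphocholine and glycerol. A single UMI was counted in the 544 progenitor nuclei, in HF2. Its differentiating libraries held 1100, 989, 916 and 877 CPM and its mature libraries 156, 91.5, 139 and 156 CPM, 6.88-fold less. The ratio of differentiating to progenitor nuclei was 1710, with a counting interval of 306 to 67580, the largest of the 10 genes at this step.

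Bcas1, which marks oligodendrocytes that begin to myelinate, differed from Enpp6 in having a progenitor level of 334 to 444 CPM. It rose to 3201, 2946, 3374 and 3121 CPM in differentiating nuclei (3161 ± 178, SD, n = 4), 8.62-fold, and stood at 648, 769, 663 and 642 CPM in mature nuclei. The mature libraries all lay above the progenitor libraries, by 1.8-fold in the sums. Its antisense genes Bcas1os1 and Bcas1os2 overlap it, and Bcas1os2 was among the genes with the most similar profile.

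Of the 3 transcription factors, Tcf7l2, an HMG-box factor that binds DNA with beta-catenin, peaked in differentiating nuclei. It stood at 129, 137.5, 87.5 and 101 CPM in progenitor nuclei, at 2130, 2597, 1744 and 2107 CPM in differentiating nuclei, and at 37.9, 14.3, 28.4 and 31.5 CPM in mature nuclei. The rise was 18.3-fold and the drop 70-fold, and mature nuclei lay below progenitor nuclei in every library. In library means the drop was 76.6-fold, against 47.8-fold with the members returned to the clustering genes and 45.15-fold at resolution 1.0.

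Olig2, the basic helix-loop-helix factor that specifies the lineage, changed least between progenitor and differentiating nuclei. Its libraries held 186, 187, 208 and 134 CPM, then 131.5, 121, 115 and 123 CPM, and then 77.3, 48.6, 52.9 and 43.7 CPM in mature nuclei. These were steps of 1.49-fold and 2.15-fold. The first step had the narrowest gap, between 134 CPM in HF2 progenitor nuclei and 131.5 CPM in MF1 differentiating nuclei.

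Myrf, the membrane-anchored factor that drives myelin genes, was switched on and stayed on. Progenitor nuclei held 9.89, 2.59, 2.08 and 10.1 CPM, 11 UMIs in all, against 157, 136, 132 and 123 CPM in differentiating nuclei, 22.1-fold more. Mature nuclei held 153, 97.2, 125 and 114 CPM. The libraries of these later stages overlapped, and the mean of CPM values taken nucleus by nucleus placed Myrf highest in mature nuclei, the only one of the 10 genes to change its highest stage under the settings tried.

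**Figure D1:**
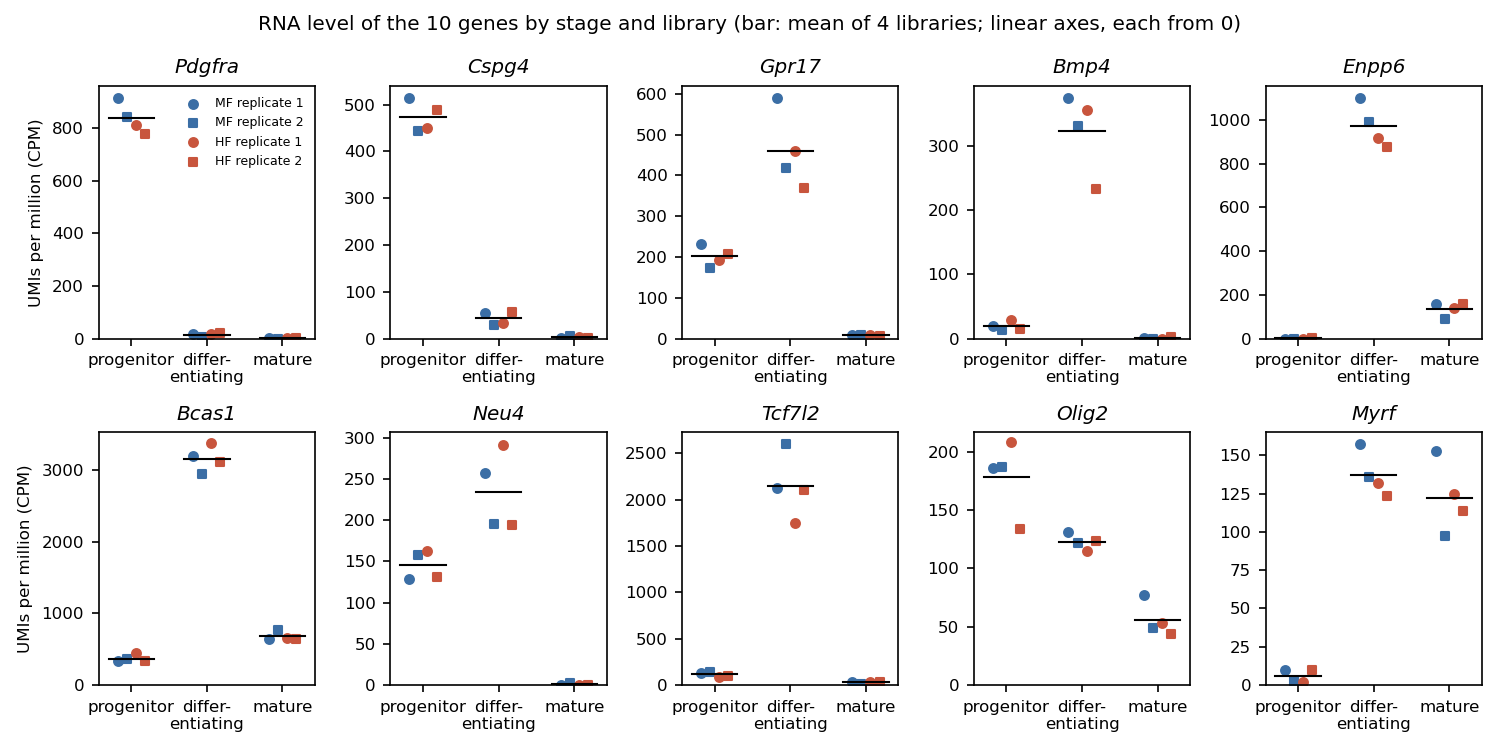
RNA level of each gene in CPM (linear y axes, each from 0) for progenitor, differentiating and mature nuclei; each point is 1 library (blue MF, red HF, circle replicate 1, square replicate 2) and the bar is the mean of 4 libraries. Pdgfra and Cspg4 stood at 838 and 474 CPM in progenitor nuclei, Bmp4, Enpp6, Bcas1, Tcf7l2, Gpr17 and Neu4 peaked in differentiating nuclei, and Myrf stood at 137 and 122 CPM in differentiating and mature nuclei.

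Shares of nuclei with at least 1 UMI followed the levels. After each nucleus was thinned to 1000 UMIs, Pdgfra was seen in 57.55 ± 5.8% of progenitor nuclei, Enpp6 in 57.95 ± 2.1% and Tcf7l2 in 61.8 ± 2.8% of differentiating nuclei, and Bcas1 in 89.2 ± 3.1% of them (SD, n = 4). Unthinned, the shares were 89.1, 83.9, 82.8 and 99.1%. Excitatory neuron-like nuclei, which should lack these genes and had a median of 12783 UMIs, showed 0, 0.148, 0 and 0.388% after thinning and 0.647, 1.56, 1.75 and 3.97% before. The Enpp6 share in progenitor nuclei, 0.185%, was at that background. The Myrf share rose from 0.37 ± 0.74% in progenitor nuclei to 12.8 ± 1.5% in differentiating nuclei and was 12.6 ± 1.3% in mature nuclei.

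The differentiating nuclei fell into 2 sub-clusters, and several of the 10 genes differed between them. One, of 210 nuclei, was led by Arhgap24 and the other, of 78 nuclei, by 9630013A20Rik and Cnksr3. The share of UMIs in the 14 myelin genes was 0.662% in the first and 2.1% in the second. These sub-clusters were made from the same RNA, and how many of all genes did not overlap between them was not counted. Bmp4 stood at 568, 603.5, 552 and 399 CPM in the Arhgap24-led nuclei and at 18.3, 23.5, 16 and 0 CPM in the others. Gpr17 (701 against 97 CPM) and Neu4 (357 against 49.8 CPM) were lower in the second sub-cluster too, with no overlap of libraries.

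Tcf7l2 went the other way. It stood at 1205, 1221, 1149 and 1069 CPM in the Arhgap24-led nuclei and at 3844, 4149, 2778 and 3577 CPM in the Cnksr3-led nuclei. Myrf was 116 ± 28.8 against 169 ± 21.1 CPM, with all libraries of the second above those of the first. Enpp6, 993 ± 46.7 against 952 ± 241 CPM, overlapped and was high in both, whereas Bcas1 was 3934 ± 200.5 against 2003 ± 164 CPM. The Cnksr3-led sub-cluster held 13 to 29 nuclei per library, with a median of 6354 UMIs against 3783 in the Arhgap24-led one. Other clusterings divided the differentiating nuclei otherwise, into 143 and 148 with 30 neighbours and 79, 96 and 143 with the members returned. At resolution 1.0 they fell into 32, 78, 112 and 85, and without the filter on ATAC counts into 83, 22, 71 and 192.

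The unnamed cluster, led by Tnni1 and Onecut2, had markers of differentiating and mature nuclei and 3.05% of its UMIs in the myelin genes. No UMI of Bmp4 or Neu4 was counted in its 119 nuclei. Tcf7l2 stood at 146, 255, 214 and 279 CPM there, below every differentiating library and above every mature one, while Enpp6 (0, 36.4, 30.5 and 74 CPM) lay below the mature level. Gpr17 was 44.5 ± 12.3 CPM, Olig2 108 ± 30.1 CPM and Myrf 136 ± 35.7 CPM.

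Mature nuclei also came in 2 sub-clusters, 234 nuclei led by D7Ertd443e and 275 led by Prr5l. Enpp6 stood at 77, 35, 52 and 79.8 CPM in the first and at 221, 146, 244 and 256 CPM in the second, without overlap. How many of all genes did not overlap was not counted here either. Gpr17 was 14.1 ± 6.5 CPM in the first, 16 UMIs in all, and 1.73 ± 2.1 CPM in the second, 2 UMIs in all. Bcas1 (631 ± 126 and 741 ± 93.3 CPM) and Myrf (122 ± 41.1 and 124 ± 17 CPM) overlapped.

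Within single nuclei the progenitor and later genes seldom met. Over the 1460 lineage nuclei, 500 had a UMI of Pdgfra and 466 a UMI of Enpp6, and 6 had both. Pdgfra met Myrf in 14 nuclei and Cspg4 met Myrf in 19, of 429 nuclei with Myrf. Gpr17 was found with Pdgfra in 219 of its 511 nuclei and with Enpp6 in 191, mostly in different stages. Of the 219, 214 were progenitor nuclei and 5 were in the Arhgap24-led differentiating sub-cluster described above. Of the 191, 141 were in that sub-cluster, 43 in the Cnksr3-led one and 1 was a progenitor nucleus. The 1460 nuclei leave out lineage sub-clusters of 101 and 36 nuclei with high doublet scores. In the larger of these, Pdgfra was in 4 of 19 nuclei with Myrf and in 2 of 32 with Enpp6. In the smaller it was in 0 of 5 and 0 of 14.

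The differentiating genes met one another. Of 191 nuclei with a UMI of Bmp4, 134 also had Enpp6, and of 494 nuclei with Tcf7l2, 252 had Enpp6. In the Arhgap24-led sub-cluster Bmp4 and Enpp6 shared 128 nuclei of 210, whereas in the Cnksr3-led sub-cluster all 78 nuclei had both Tcf7l2 and Enpp6 and 57 had Myrf, while 5 had Bmp4. Nuclei were not thinned for these counts, and nuclei of 1 library share their RNA background.

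In the larger named classes outside the lineage most of the 10 genes were near background. Clusters outside the lineage that stayed unnamed, the largest of 1749 nuclei led by Trpc6 and Dgkh, are not described here. In astrocyte-, microglia-, inhibitory and excitatory neuron-like nuclei Pdgfra, Cspg4, Gpr17, Bmp4, Enpp6, Bcas1, Neu4, Olig2 and Myrf stood between 0 and 12.8 CPM by mean. Tcf7l2 was the exception, at 304, 284, 255 and 394 CPM in astrocyte-like nuclei and at 200, 359, 119 and 244 CPM in microglia-like nuclei. Both lay above the progenitor mean of 114 CPM, and 24.3 ± 3.9% of thinned astrocyte-like nuclei had a UMI against 0% of excitatory neuron-like ones (unthinned 51.8 and 1.75%).

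Pdgfra and Cspg4 had further sites of expression in small classes. Pdgfra stood at 197, 196, 153 and 184 CPM in 98 fibroblast-like nuclei. Cspg4 was 175 ± 138 CPM in a vascular-like cluster of 36 nuclei led by Atp13a5 and Vtn, from 34 UMIs. The median doublet score of this cluster was 0.0495, just under the cut of 0.05. Without the filter on ATAC counts a cluster with the same leaders scored 0.0552 and was left out as mixed. In 87 cycling-like nuclei, named by cell-cycle genes, Pdgfra was 266 ± 116.5 CPM, Cspg4 101 ± 66.7 CPM, Olig2 49.6 ± 24.6 CPM and Neu4 41.4 ± 8 CPM, while Myrf was 2.9 CPM. Bcas1 was uneven in the cycling-like nuclei, at 22.5, 39.4, 98 and 381 CPM in MF1, MF2, HF1 and HF2.

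The genes with the most similar profiles were found by Pearson's r of log2(CPM + 1) over 32 sums (8 classes in 4 libraries) among 13354 genes, as a description across sums that share libraries. Pdgfra was most like Kcnh8 (r = 0.921), Abhd2 and Mc5r, and Cspg4 most like C1ql1 (r = 0.94), Kcnh8 and Rbpjl. Neu4 and Gpr17 shared Susd5 and 1700034J05Rik among their nearest 3, with Inava (r = 0.966) first for Neu4 and Susd5 (r = 0.937) first for Gpr17. Bmp4 was nearest to E2f8 (r = 0.919), Arhgap24 and Vwf, Enpp6 to Gm26834 (r = 0.937), Adamts4 and 1700042O10Rik, and Bcas1 to Zfp488 (r = 0.966), Bcas1os2 and Chst3. Tcf7l2 was nearest to Tns3 (r = 0.927), Asap3 and Cd9, Olig2 to Pllp (r = 0.949), Rnf43 and Sox10, and Myrf to Depdc1b (r = 0.933), Mbp and Cldn14. C1ql1, Tns3 and Mbp were themselves naming markers.

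Genes of the same pathways were described by stage beside the 10, for those of at least 10 CPM. Over all 10796 such genes 43.4% were highest in progenitor, 28.7% in differentiating and 27.9% in mature nuclei. The BMP pathway had 9 of 11 genes highest in progenitor nuclei, among them the ligand Bmp7 (54 ± 6.6 CPM, and 0 UMIs in mature nuclei) and the inhibitory helix-loop-helix gene Id2 (42.9 against 13.8 CPM). The inhibitory Smad7 ran against them, at 25.3 ± 9.3 CPM in progenitor, 178 ± 16 CPM in differentiating and 366 ± 40.8 CPM in mature nuclei.

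The Wnt pathway had 6 of 11 genes highest in progenitor nuclei, 3 in differentiating and 2 in mature nuclei. The coreceptor gene Lrp5 stood at 30.4 ± 8.1 CPM in progenitor nuclei with 1 UMI in mature nuclei, and Axin2, a feedback target of the pathway, stood at 16.1, 17.1 and 4.78 CPM in progenitor, differentiating and mature nuclei. Tcf7l1, the paralogue of Tcf7l2, peaked in differentiating nuclei too (30.5, 224 and 46.5 CPM), and Daam2 rose from 2.17 to 278 CPM between progenitor and mature nuclei. Of the PDGF ligands, Pdgfa peaked in differentiating nuclei at 124 ± 52.2 CPM and Pdgfc was highest in mature nuclei at 143 ± 39.3 CPM.

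Of 18 other transcription factors of the lineage, 8 were highest in progenitor, 7 in differentiating and 3 in mature nuclei. Sox6 (2390 CPM in progenitor and 5.49 CPM in mature nuclei) and Prrx1 (140 CPM in progenitor nuclei, 1 UMI in mature nuclei) were lost with maturation. Nkx6-2 (5.63 to 76.9 CPM) and Zfp536 (178 to 2275 CPM) were gained. Sox6 was 1 of the 3 naming markers on this list. The myelin programme had 14 of 14 genes highest in mature nuclei, Mog and Aspa with the largest gains (198-fold and 130-fold), though 12 of them named the clusters. Of the relatives of Neu4 and Enpp6, Enpp2 and Enpp4 rose with maturation, to 1585 ± 157 and 44.8 ± 15.5 CPM, and Enpp2 was itself a naming marker on another list.

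Accessibility of the same nuclei was not used to define the stages, and so the stages could be tested on it. Counts per library and stage over 51243 regions with a peak in all 4 libraries were fitted with edgeR's quasi-likelihood test, with library as a block, and a region was called when its p-value adjusted after Benjamini and Hochberg (FDR) was under 0.05. In or within 5000 bases of the 10 genes lay 78 shared regions, of which 64 were tested. A filter on low counts was applied over all stages together, so a region could pass it through the stages where it was open. Such regions are among the counts below, as is the Enpp6 promoter region with progenitor counts of 0, 1, 0 and 1. For them the differences between stages are descriptions. Between differentiating and progenitor nuclei 15 of the 64 were higher and 13 lower, against 12% and 10.1% of all regions (22.1% called in all). Between mature and differentiating nuclei 4 were higher and 22 lower, against 11.9% and 15.5% (27.4% in all). Between mature and progenitor nuclei 15 were higher and 23 lower, against 19.6% and 22.7% (42.3% in all). Accessibility levels below are ATAC counts scaled in the same way (CPM), and differences are log2 with their SE.

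At both progenitor genes some regions closed and others did not. The Cspg4 promoter region (chr9:56864608-56865375) held 43.7, 32.1, 36.6 and 27 CPM in progenitor nuclei and 7.07, 7.15, 7.96 and 5.62 CPM in differentiating nuclei. All progenitor libraries lay above all others, and the difference was -2.34 (SE 0.39, edgeR FDR 2.47e-07). An intronic region of Cspg4 (chr9:56870905-56871914) went from 44.1 to 4.83 CPM (-3.21, SE 0.39) and was at 2.65 CPM in mature nuclei.

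Not all of the Cspg4 locus followed. Of its 12 tested regions 6 were lower in differentiating than in progenitor nuclei. Between differentiating and mature nuclei 4 fell but 3 rose, in an intron, an exonic stretch and downstream of the gene. The downstream one (chr9:56900983-56901901) went from 11.6 ± 5.5 to 46.6 ± 6 CPM (1.99, SE 0.3, edgeR FDR 1.1e-08), while the RNA of Cspg4 fell.

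At Pdgfra an exonic region (chr5:75163005-75163979), 1171 bases from the nearest annotated start, was open in progenitor and differentiating nuclei. It held 99.9, 109, 86.2 and 107.5 CPM in progenitor nuclei, 69.6, 63.3, 50.6 and 50.5 CPM in differentiating nuclei, and 1.93, 0, 6.49 and 2.4 CPM in mature nuclei. The first difference was -0.81 (SE 0.17) and the second -4.15 (SE 0.28, edgeR FDR 1.4e-30), whereas the RNA had fallen 55.8-fold at the first. A promoter region of Pdgfra (chr5:75156907-75157724) closed at the first step, from 22.6 to 4.62 CPM (-2.24, SE 0.46). It stood at 9.05 CPM in mature nuclei, a second difference that was not called (0.91, SE 0.5, edgeR FDR 0.171). Another promoter region, at an annotated start (chr5:75155839-75156729), stood at 27.2 ± 7.5, 20.3 ± 7.7 and 17.35 ± 5.3 CPM and was called at neither step (-0.43, SE 0.31, edgeR FDR 0.344, and -0.23, SE 0.32, edgeR FDR 0.646).

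Neu4 and Gpr17 had promoters that were open in both progenitor and differentiating nuclei. The Neu4 promoter region (chr1:94019857-94020806) held 67.4, 81.1, 66.25 and 62.65 CPM and then 64.85, 61.25, 69.4 and 99.7 CPM, and fell to 2.58, 9.41, 4 and 4.8 CPM in mature nuclei. The first groups overlapped (0.05, SE 0.18), and the loss was -3.88 (SE 0.26, edgeR FDR 8.2e-32). An exonic region of Neu4 (chr1:94027357-94028273) fell at both steps, from 44.1 to 20.8 and to 0.471 CPM.

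The Gpr17 promoter region stood at 150 ± 21.2, 155 ± 18 and 59.4 ± 6.5 CPM over the 3 stages. Mature nuclei thus kept 59.4 CPM of accessibility at this promoter (-1.37, SE 0.13), with an RNA level of 7.76 CPM. A region upstream fell at both steps, from 112 to 79.4 and to 16.2 CPM, and an exonic region rose from 24.6 to 60.1 CPM between differentiating and mature nuclei. The whole of Gpr17 lies within Lims2, so these regions belong to both genes by position.

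At Bmp4 the promoter opened and closed again. The region (chr14:46390104-46391090) held 4.73, 3.38, 3.23 and 10.9 CPM in progenitor nuclei, 24.8, 41.9, 41.2 and 46.3 CPM in differentiating nuclei and 0, 3.765, 2 and 1.2 CPM in mature nuclei. No libraries of the differentiating stage overlapped with the others. The differences were 2.8 (SE 0.41, edgeR FDR 5.4e-09) and -4.52 (SE 0.5, edgeR FDR 8.1e-15), where the mature libraries held 0, 4, 4 and 2 counts. The second Bmp4 region, at the start of another transcript, followed with 24.2, 44.9 and 11.9 CPM.

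At Enpp6 the chromatin opened with the RNA and stayed open in part. Its promoter region (chr8:46986474-46987401) had 2 counts in all progenitor nuclei, then 16.5, 6.125, 9.4 and 21.1 CPM in differentiating and 12.9, 11.3, 8.99 and 13.2 CPM in mature nuclei. The rise was 5.09 (SE 0.78), and the later stages overlapped (-0.1, SE 0.5) although the RNA fell 6.88-fold. This region passed the count filter through the later stages, so the rise is a description. The size of the rise rests on those 2 progenitor counts.

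An intronic region 1223 bases from an Enpp6 start (chr8:46988177-46989109) came closer to the course of the RNA. It held 1.77, 1.13, 3.23 and 3.45 CPM, then 56.6, 60.2, 60.8 and 50.5 CPM, and then 16.1, 13.2, 18 and 7.79 CPM. Both steps were called, at 4.5 (SE 0.37) and -2.05 (SE 0.29). Further in, a region at chr8:47005422-47006300 stood at 4.58, 43 and 60.4 CPM and was not called between the later stages.

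Bcas1 had a promoter region (chr2:170406217-170407161) at 43.2 ± 10.2, 102 ± 18 and 99.2 ± 7.6 CPM. The rise was 1.23 (SE 0.15, edgeR FDR 6.2e-12) and the later difference -0.02 (SE 0.14), while the RNA fell 4.78-fold. An intronic region (chr2:170403507-170404437) rose and fell, with 46.1, 78.9 and 21.3 CPM (0.75, SE 0.18, and -1.88, SE 0.2).

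The first Tcf7l2 promoter region (chr19:55741219-55742106) stood at 29.5 ± 7.3, 48.5 ± 4.3 and 24.3 ± 3.1 CPM, a rise of 0.7 (SE 0.23) and a loss of -0.99 (SE 0.24), where the RNA changed 18.3-fold and 70-fold. Of its 13 tested regions 3 were higher in differentiating than in progenitor nuclei and 0 lower, and 4 were lower in mature than in differentiating nuclei and 0 higher. The Olig2 promoter stood at 90.8 ± 7.2, 70.3 ± 4.8 and 60.6 ± 5.3 CPM, a first step of -0.39 (SE 0.15, edgeR FDR 0.0475). A region downstream of Olig2 (chr16:91233205-91234167) changed more, from 106, 107.5, 147 and 99.4 CPM through 41.3, 49, 74.5 and 59 CPM to 7.73, 9.41, 15 and 13.8 CPM.

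At Myrf 4 of 8 tested regions opened in differentiating nuclei and 0 of 8 were called between differentiating and mature nuclei. The upstream region (chr19:10242716-10243628), 1968 bases from the nearest Myrf start, held 2.36, 2.82, 1.62 and 4.02 CPM in progenitor nuclei, then 44.8, 55.1, 65.1 and 57.6 CPM, and 47, 57.4, 62.9 and 55.8 CPM in mature nuclei. It differed by 4.31 (SE 0.31, edgeR FDR 1.6e-28) at the first step and by 0.01 (SE 0.2) at the second. The Myrf promoter region itself rose less, from 26.2 ± 5.9 to 44 ± 6 CPM (0.72, SE 0.21).

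**Figure D2:**
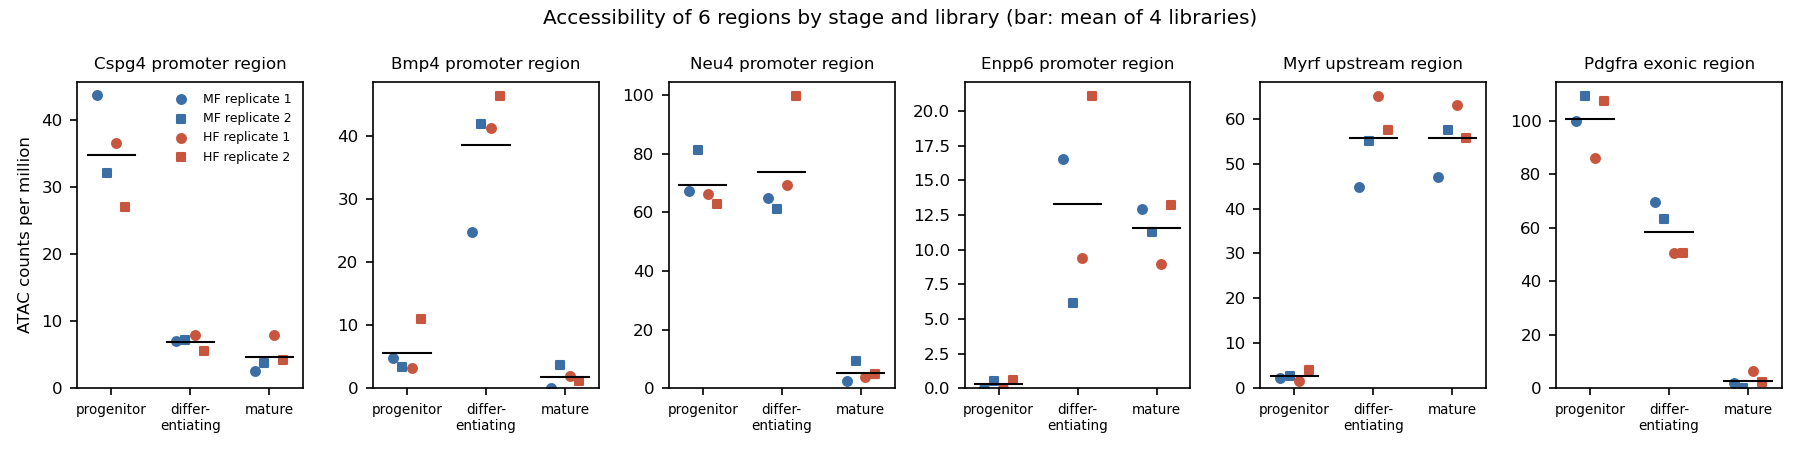
Accessibility in CPM (linear y axes from 0) of 6 regions of Cspg4, Bmp4, Neu4, Enpp6, Myrf and Pdgfra by stage; each point is 1 library (blue MF, red HF, circle replicate 1, square replicate 2) and the bar is the mean of 4 libraries. Cspg4 closed at the first step, Bmp4 was open in differentiating nuclei (38.5 CPM), Neu4 and Pdgfra closed in mature nuclei (5.2 and 2.71 CPM), and Enpp6 and Myrf opened in differentiating nuclei.

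**Figure D3:**
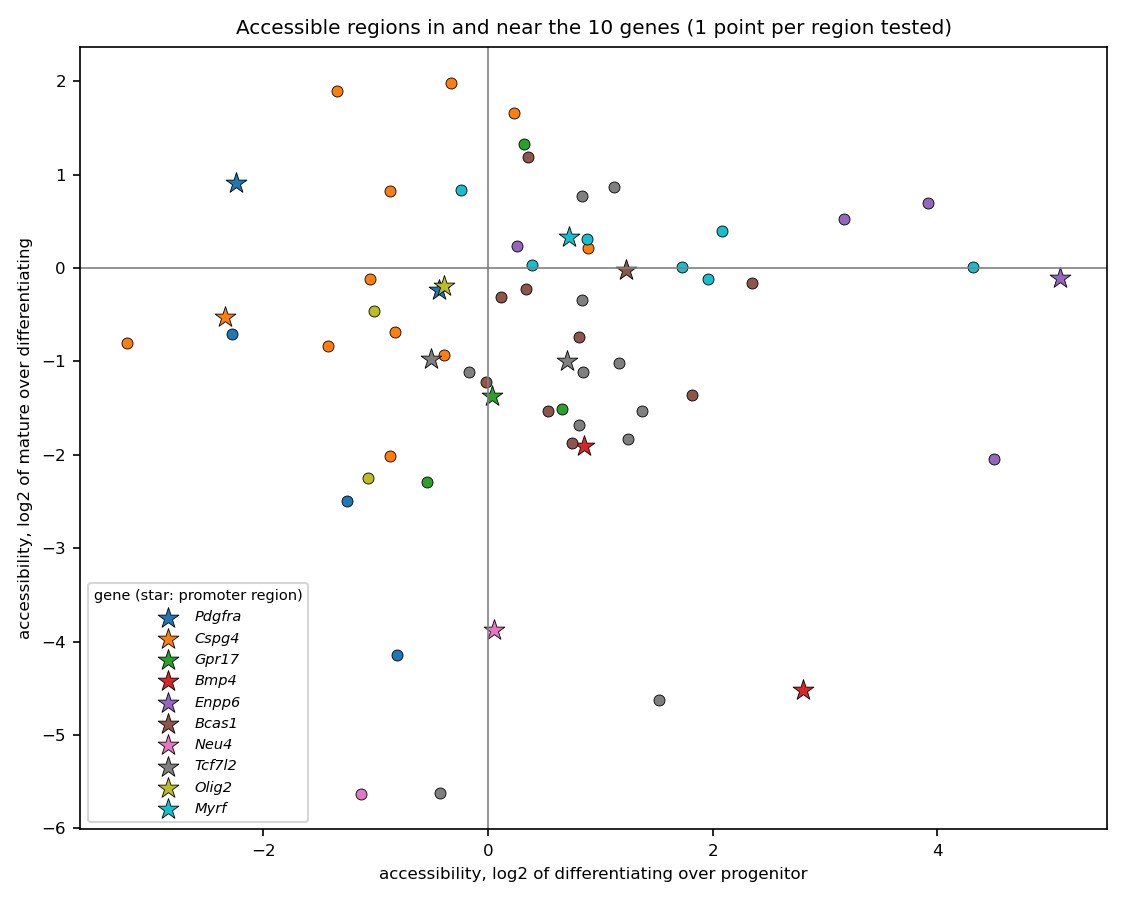
Each point is 1 of the 64 tested regions in or near the 10 genes (colour gives the gene, stars mark regions at a transcription start); the x axis is the log2 ratio of accessibility of differentiating over progenitor nuclei and the y axis that of mature over differentiating nuclei. The Enpp6 promoter lies at 5.09 and -0.1 on the x and y axes, the Myrf upstream region at 4.31 and 0.01, the Bmp4 promoter at 2.8 and -4.52, and the Cspg4 promoter at -2.34 on the x axis; other regions of the same genes lie elsewhere.

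Between the diets 0 of the 10 genes passed the test in any stage. Counts were summed per library and stage and fitted with edgeR's quasi-likelihood test, called at FDR under 0.05 and at least 1.2-fold. Of all genes, 0.0559% were called in progenitor nuclei (4 of 7150), 0% in differentiating nuclei (0 of 5126), 0% in mature nuclei (0 of 7285) and 0.0367% in the whole lineage (4 of 10885). The 4 genes called were the haemoglobin genes Hbb-bt, Hbb-bs, Hba-a1 and Hba-a2, lower in HF, and without MF1 the count in progenitor nuclei was 1. In differentiating and mature nuclei 107 and 162 genes had an unadjusted p under 0.05, and DESeq2 called 0 in all of these comparisons.

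In progenitor nuclei 7 of the 10 genes passed the count filter, 3 higher and 4 lower in HF, with a median difference of -0.00088 on the log2 scale against 0.0074 for all genes tested. Tcf7l2 had the smallest p, with 129 and 137.5 CPM in MF and 87.5 and 101 CPM in HF. The diets did not overlap, and the difference was -0.47 on the log2 scale (SE 0.3, edgeR adjusted p = 1). Pdgfra stood at 916 and 845.5 CPM in MF and 812 and 779 CPM in HF (-0.12, SE 0.32), and the other 5 overlapped between the diets. Library values that did not overlap were thus found for 2 of the 7, and for 27.1% of all genes tested in progenitor nuclei.

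In differentiating nuclei 9 were tested, 2 higher and 7 lower in HF, with a median of -0.19 against -0.0024 for all genes tested. One of the 7, Cspg4 at -0.015, was above 0 under 4 other settings and without MF1 or HF1. Tcf7l2 was again lower in both HF libraries, at 1744 and 2107 CPM against 2130 and 2597 CPM. The difference was again not called (-0.29, SE 0.26, edgeR adjusted p = 1). Enpp6 (1100 and 989 against 916 and 877 CPM) and Myrf (157 and 136 against 132 and 123 CPM) did not overlap between the diets either, with differences of -0.21 (SE 0.23) and -0.19 (SE 0.28). These 3 of 9 stood against 28.3% of all genes tested that did not overlap. Bmp4 differed by -0.23 (SE 0.26), and HF2 held its lowest value, 234 CPM.

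In mature nuclei 5 were tested, 2 higher and 3 lower in HF (median -0.071 against -0.0021 for all genes), with Olig2 first at -0.4 (SE 0.34, edgeR adjusted p = 1) and Enpp6 at 0.24 (SE 0.3). MF1 was highest for Olig2 and Myrf, and the diets overlapped for all 5, where 27.4% of all genes tested did not overlap. Over the whole lineage all 10 were tested, 2 higher and 8 lower in HF (median -0.24 against -0.0017). Pdgfra stood at 294 and 287 CPM in MF and at 196 and 211 CPM in HF (-0.45, SE 0.25, edgeR adjusted p = 1), beside a share of progenitors among the 3 stages of 41.9 and 45.5% in MF and 35.4 and 42.4% in HF. The part of that share in the Pdgfra difference was not tested. The diets did not overlap for 3 of the 10 in the lineage (Pdgfra, Cspg4 and Olig2), and for 26.6% of all genes tested.

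Whether the diet difference changed from progenitor to mature nuclei was tested as an interaction. It was called for 0.0698% of genes (6 of 8598), and for 0.0857% (5 of 5833) of those that passed the count filter in both stages. Of the 10 genes only Bcas1, Tcf7l2 and Olig2 passed in both, and 0 of these 3 were called (-0.29, SE 0.24, 0.54, SE 0.46, and -0.32, SE 0.36, each with an edgeR adjusted p of 1). The other 7 lacked the counts in at least 1 of these stages, so no difference between stages is given for them. The 6 genes called were Ptgds, the 4 haemoglobin genes and Thsd7b, which did not pass in mature nuclei. With 2 libraries per diet the SE of a member's difference within a stage was between 0.23 and 0.46 on the log2 scale.

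**Figure D4:**
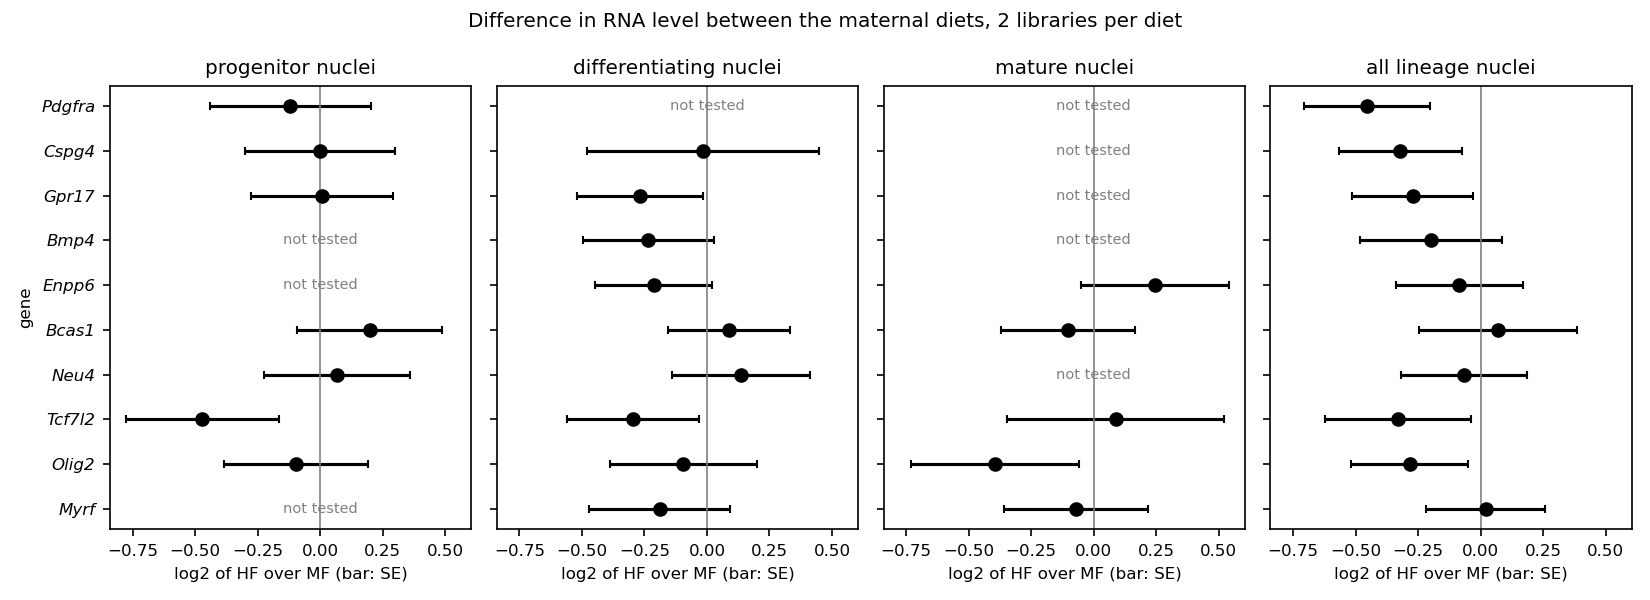
Difference in RNA level between HF and MF (log2, point, with its SE as bar) for each gene in progenitor, differentiating, mature and all lineage nuclei; genes that did not pass the count filter are marked as not tested. None was called, and the largest in the lineage was Pdgfra at -0.45.

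In the 6 pathway lists 0 genes were called between the diets. An unadjusted p under 0.05 was found for Enpp5 in progenitor nuclei (-1.04, SE 0.5), Sox5 in differentiating nuclei (0.59, SE 0.25) and Neu1 in mature nuclei (-1.45, SE 0.66), where HF2 held 1 UMI of Neu1 and the others 12 or 13. In the interaction, among list genes that passed the filter in both stages, it was found for Mal (-1.01, SE 0.36). Accessibility differed between the diets in 0.00471% of 63752 regions of the lineage (3 regions), and in 0 of the 71 regions tested in and near the 10 genes. Of the 71, the intronic Tcf7l2 region chr19:55913414-55914388 had the smallest p (-1.66, edgeR adjusted p = 1).

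The share of differentiating nuclei among the 3 stages was 19.9 and 24% in MF1 and MF2 and 25.2 and 16.2% in HF1 and HF2. The HF libraries lay on both sides of the MF libraries, and the difference of the means was -1.24 percentage points (exact two-sided permutation test over 4 libraries, p = 1, where the smallest possible is 0.33). Progenitors made up 43.7 ± 2.5% in MF and 38.9 ± 4.9% in HF (exact permutation p = 0.667), and mature nuclei 34.4 ± 5.4% and 40.4 ± 1.5% (exact permutation p = 0.33). The unnamed cluster was 5.46 and 7.28% of the lineage in MF and 8.28 and 11.3% in HF (exact permutation p = 0.33). That cluster depended on the clustering: 0 nuclei were unnamed at resolution 1.0, with the members returned to the clustering genes, or without the filter on ATAC counts. Adjusted over these 4 tests the p-values were between 0.667 and 1.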

How the data were processed

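Single-nucleus RNA and chromatin accessibility were measured together in 4 hippocampus libraries, 2 per diet. Per the labels, the authors aligned reads to mm10 with Cell Ranger ARC 2.0.1 and deposited RNA matrices of UMI counts and ATAC matrices of counts per peak, called in each library, with no normalization. Seurat is also named in the submitters' processing notes. The RNA of the deposited nuclei came to between 39223075 and 47460174 UMIs per library, and intervals cover counting error only.

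Nuclei were kept if they had 500 to 7000 genes, 1000 to 70000 ATAC counts and less than 2% of UMIs from mitochondrial genes. They were clustered with Scanpy 1.11.5 and leidenalg 0.10.2 (3000 variable genes, 20 components, 20 neighbours, resolution 0.8). The variable genes left out the 10 members and 132 other genes, among them mitochondrial, ribosomal protein and haemoglobin genes. The lineage was clustered again (2000 variable genes, resolution 0.5). A cluster was named when at least 3 markers of a type, found in at least 10% of its nuclei, stood among its top 50 genes by fold with 10 CPM added, more than of any other type, and no other type had more markers among its top 10. This offset was set after the clusters were seen and before the diets were compared. Clusters with a median Scrublet doublet score over 0.05 were left out of all classes. The members and lists were chosen with earlier results of these data known, and the motifs after the sequences were seen. Genes named beside the members were, for each, the 3 of highest Pearson's r, and in each list up to 2 with the largest ratio in either direction between mature and progenitor nuclei, plus those with an unadjusted p under 0.05 between the diets.

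Counts were summed per library and stage and tested with edgeR 4.0.16 (TMM, filterByExpr, quasi-likelihood, two-sided) in R 4.3.3, with Benjamini-Hochberg adjustment. A diet difference between stages is given for the members and lists only where a gene passed the filter in both stages, a condition set after the values were seen. The fits were tested on simulated data with 200 changed features. Merging the peaks of the 4 libraries gave 253710 regions, and 154764 of these were called in every library. Regions within 1000 bases of a transcription start are called promoter regions. Genes were placed with GENCODE M21. In it other genes of the matrices also overlap Pdgfra (Gm42802), Enpp6 (Gm45600 and 4930579M01Rik) and Tcf7l2 (Ppnr, on the same strand). DESeq2 1.42.0, other normalization, filters, clusterings, a replicate block and leaving out each library were alternatives. In sums of all lineage nuclei, which mix the stages, replicates of a diet differed by more than sampling noise. The mean chi-square per gene was 6.24 in MF and 10.1 in HF. No sequence of Gpr17, Bcas1 or a promoter of Myrf is given.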

Additional observations from a re-analysis of the deposited data

Results flagged for a closer look

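In 6 genes the diet difference of mature nuclei differed from that of progenitor nuclei by the interaction term of edgeR's quasi-likelihood test, and 0 of the 10 switch genes were among them. The difference between the stages was 6.46 on the log2 scale for Thsd7b (SE 1.27, edgeR FDR 0.000663), a gene with 0, 0, 21 and 5 UMIs in mature nuclei of MF1, MF2, HF1 and HF2 that did not pass the count filter there, and -2.02 for Ptgds (SE 0.43, edgeR FDR 0.00476). For the haemoglobin genes it was 2.34 for Hbb-bt, 2.11 for Hbb-bs, 2.08 for Hba-a1 and 2.14 for Hba-a2. The haemoglobin values move with MF1, which held 1142 UMIs of Hbb-bt in progenitor nuclei against 29 to 43 in the other libraries, and without MF1 the count of genes called was 0. With DESeq2 it was also 0.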

How the results depend on the processing

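Of the 10 genes, 0 were called between the diets in any stage under any setting run. Their smallest unadjusted edgeR p-values over the settings were 0.00726 for Bmp4 in the lineage without HF1 (the smallest FDR there was 0.827) and 0.00358 for Tcf7l2 in the diet by stage term with 30 neighbours. The counts of all genes called moved more, and the cause was not tested. DESeq2 gave 0 in place of 4 in progenitor nuclei, 0 in place of 4 in the lineage and 0 in place of 6 for diet by stage. Without the count filter there were 6 in differentiating and 6 in mature nuclei in place of 0, and 0 regions between the diets in place of 3, as with regions found in any library (0). Without likely doublets, by their score, there were 0 in the lineage and 1 for diet by stage, where 30 neighbours gave 3. An FDR of 0.01 left 7363 of 11311 regions between differentiating and progenitor nuclei. Leaving out 1 library gave 1 to 8 genes in progenitor, 3 to 9 in differentiating, 1 to 13 in mature and 0 to 8 in lineage nuclei, 0 to 10 for diet by stage and 10 to 49 regions. Where this left a diet with 1 library, that library was assumed to vary like the others. The difference in the share of differentiating nuclei ran from -5.76 to 3.28 percentage points, and was 0.773 without MF2 and 3.28 without HF2.

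With the replicate number as a block (replicate block) the counts were 4 in progenitor, 3 in differentiating, 9 in mature and 8 in lineage nuclei, and 6 regions. The labels do not tie equal numbers, and the deviations of equal numbers correlated at 0.091, 0.052, 0.175 and 0.278 in progenitor, differentiating, mature and lineage sums.

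Over all settings the diet differences of members changed sign in 37 values and kept it in 401. In progenitor nuclei Cspg4 was 0.0015 with RLE factors and 0.0029 with the members returned to clustering, and Gpr17 -0.0007 without the filter and -0.0049 without likely doublets. In differentiating nuclei Cspg4 was 0.10 with DESeq2, 0.20 with the members returned, 0.26 with 30 neighbours and 0.0076 without likely doublets, and Bcas1 -0.0125 with the members returned and -0.0299 at resolution 1.0. Myrf in the lineage was -0.0015 with 30 neighbours. Leaving out 1 library gave, in progenitor nuclei, -0.15 to 0.12 for Cspg4, -0.13 to 0.18 for Gpr17, -0.13 to 0.26 for Neu4 and -0.38 to 0.11 for Olig2. In differentiating nuclei it gave -0.39 to 0.51 for Cspg4, -0.14 to 0.33 for Neu4 and -0.18 to 0.048 for Olig2. Below 0 throughout but moved far were Tcf7l2 (-0.49 to -0.049), Gpr17 (-0.42 to -0.039) and Bmp4 (-0.51 to -0.027) in these nuclei. In mature nuclei it gave -0.0069 to 0.65 for Enpp6, -0.28 to 0.085 for Bcas1, -0.27 to 1.01 for Tcf7l2 and -0.28 to 0.26 for Myrf. For Olig2, below 0 throughout, it gave -0.60 to -0.045 there. In the lineage it gave -0.87 to 0.22 for Bmp4, -0.24 to 0.054 for Enpp6, -0.10 to 0.23 for Bcas1, -0.42 to 0.20 for Neu4, -0.61 to 0.018 for Tcf7l2 and -0.16 to 0.25 for Myrf. For diet by stage, given for the 3 genes that passed the filter in both stages, it gave -0.54 to 0.15 for Olig2. Without a change of sign it gave 0.14 to 1.64 for Tcf7l2 and -0.44 to -0.16 for Bcas1.

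The stage of highest RNA level was the same for 10 of 10 genes in every setting but the mean of per-nucleus CPM, where it was the same for 9. Of the differences of member regions called between stages, 878 values under the alternatives kept their side of the threshold, 38 lost it and 0 changed sign, and regions called only under an alternative are not counted.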
